A study of Saccharomyces cerevisiae BY4741 with 22 samples.

Results

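The region described here is a stretch of 13 nucleotides near the 3′ end of yeast 18S rRNA, nucleotides 1770 to 1782 of the 1800 of mature 18S. It was set by position and not by a cut-off on skipping, but with earlier results of these data known. Its 3′ edge is formed by A1781 and A1782, the adjacent adenosines that Dim1 dimethylates, and these 13 positions belong to the 6858 of the deposited 35S precursor reference. The quantity followed was the skip share of a nucleotide, the percentage of reads that reach past it on the 3′ side but have no base aligned at it. It was taken as the highest depth found at or 3′ of the nucleotide minus the depth at the nucleotide, divided by that highest depth.

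Dim1 is a conserved methyltransferase that adds a pair of methyl groups to the exocyclic N6 nitrogen of each of these adenosines. They lie in the loop of the last helix of 18S rRNA, and in yeast the modification is made during late cytoplasmic maturation of the small subunit. The methyl groups sit on the base-pairing edge, and modifications of that edge are known to hinder reverse transcriptases. Dim1-E85A carries a substitution in the enzyme and is known as a methylation-deficient form. Pno1 is an assembly factor that sits near the 3′ end of pre-18S rRNA until late maturation, and Rps14 is a ribosomal protein of the neighbouring platform.

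The samples were 18 libraries of 3′-end sequencing of 18S rRNA from purified 40S subunits of BY4741 yeast, the strain background of every group. In each strain the chromosomal copies of the replaced genes, Dim1 and either Pno1 or Rps14, were under a galactose promoter. Cells were grown for 8 doublings in glucose medium (YPD), and plasmids supplied the proteins instead. The Pno1 strain (8 libraries) carried TEF::Pno1 with Cyc1::Dim1-E85A. The Pno1-KKKF strain (8 libraries) carried TEF::Pno1-KKKF, a Pno1 mutant, with the same Cyc1::Dim1-E85A. The Rps14 + Dim1 strain (2 libraries), which the labels call the Dim1 control, carried TEF::Rps14 with Cyc1::Dim1. It therefore differs from the other strains in Dim1 and also in whether Rps14 or Pno1 was replaced, and these differences cannot be told apart. The promoter names are those of the labels, and the remaining chromosomal expression was not measured.

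The libraries were made in 3 ways, each at a stated growth temperature. Replicates 1 to 3 of Pno1 and Pno1-KKKF were grown at 30 °C and ligated to the universal miRNA cloning linker. Replicates 4 and 5 were grown at 25 °C with that linker. Replicates 6 to 8, and both Rps14 + Dim1 libraries, were grown at 25 °C and ligated to a linker with a molecular identifier (UMI). Universal-linker cDNA was purified on a gel and UMI-linker cDNA on beads, so linker and purification cannot be told apart. The highest depth in a library was 2615354 to 4373681 reads with the universal linker and 2721297 to 3518330 with the UMI linker. The widest 95% Wilson interval on a skip share was ± 0.0344 percentage points. These intervals cover counting error alone. Replicates are called biological in the labels.

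The largest skip shares lay 2 and 3 nucleotides 5′ of the first target adenosine, at 1779 and 1778, and they were high in the Dim1 strain. At nucleotide 1779, 10.1% and 11.6% of reads skipped the base in the Rps14 + Dim1 libraries. The 3 Pno1 libraries with Dim1-E85A and the same linker gave 1.60%, 0.875% and 0.506%, and the 3 Pno1-KKKF libraries gave 0.907%, 0.912% and 1.19%. The lower Dim1 library was therefore several times above the highest Dim1-E85A library, and the 2 Dim1-E85A strains overlapped. Nucleotide 1778 followed 1779 closely. It was skipped in 9.91% and 11.4% of reads with Dim1, in 1.57%, 0.855% and 0.492% in Pno1, and in 0.885%, 0.890% and 1.16% in Pno1-KKKF. The group means at 1778 were 0.973% ± 0.549 for Pno1 and 0.977% ± 0.155 for Pno1-KKKF (SD, n = 3 libraries for both), against 10.7% ± 1.06 for Rps14 + Dim1 (SD, n = 2).

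The first target adenosine, A1781, was skipped less often than 1778 and 1779, but the strains were ordered in the same way. Its skip share was 1.76% and 1.72% with Dim1. It was 0.279%, 0.11% and 0.0774% in Pno1, and 0.134%, 0.134% and 0.162% in Pno1-KKKF. The Dim1 values lay close together, and Pno1 replicate 6 was the highest of the Dim1-E85A libraries. Nucleotide 1780, between A1781 and the strongest positions, gave 1.69% and 1.64% with Dim1. It gave 0.313%, 0.149% and 0.131% in Pno1, and 0.192%, 0.182% and 0.207% in Pno1-KKKF. Group means with Dim1 were 1.67% ± 0.0365 at 1780 and 1.74% ± 0.0250 at A1781 (SD, n = 2).

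At the second target adenosine, A1782, and at nucleotide 1777 skipping was rarer, and the same difference was seen. The mean at A1782 was 0.283% ± 0.00631 with Dim1 (SD, n = 2), while Pno1 had 0.0237% ± 0.0170 and Pno1-KKKF had 0.0238% ± 0.00189 (SD, n = 3 libraries for both). At 1777 the means were 0.318% ± 0.0680, 0.0469% ± 0.0173 and 0.0482% ± 0.00382 in the same order. The 2 groups of strains did not overlap at either nucleotide. One base 3′ of the region, at 1783, the depth was the highest of the library in all 8 UMI-linker libraries. Its share of 0 is therefore set by the measure and does not show that no read skipped it. The 7 nucleotides from 1770 to 1776 had skip shares of at most 0.0181% in all of these libraries.

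**Figure D1:**
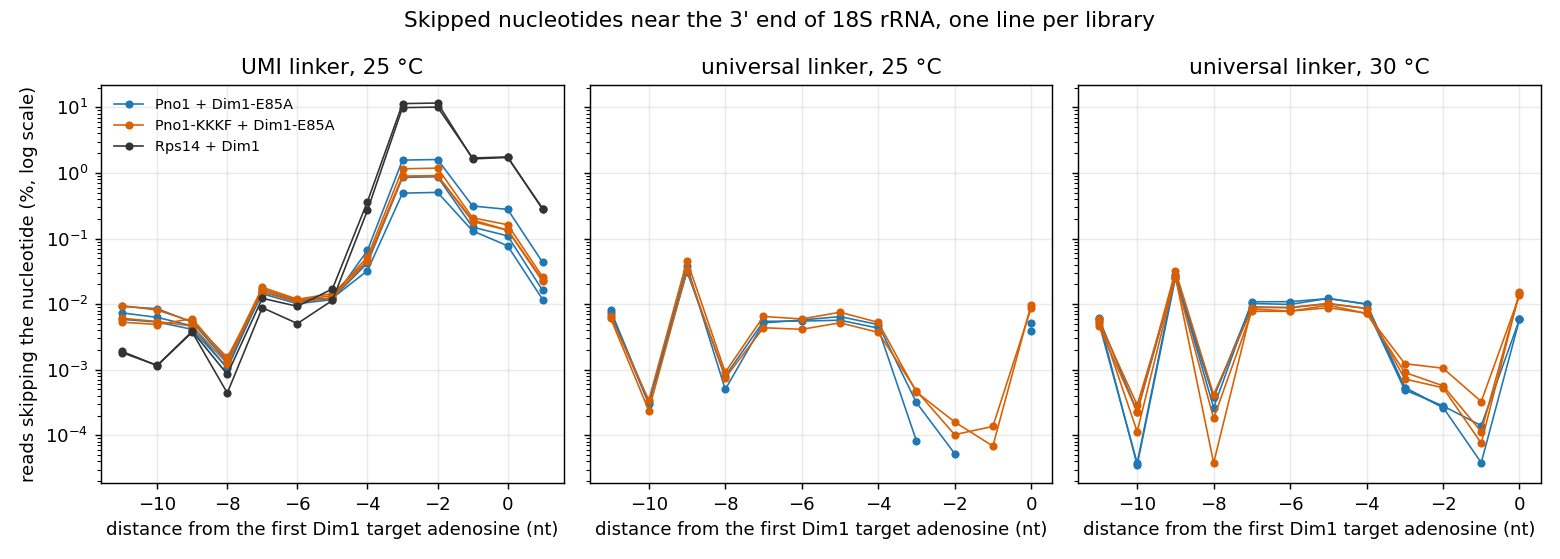
Skip share in percent (log axis) against the distance in nucleotides from the first Dim1 target adenosine, with 1 line per library, a colour per strain and a panel per linker and temperature; a share of 0 cannot be drawn on this axis and leaves a gap. The 2 Rps14 + Dim1 lines run above all others from 4 nucleotides 5′ of that adenosine to 1 nucleotide 3′ of it, with 10.1% and 11.6% at their maximum; the universal-linker lines have no such peak.

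The first comparison set Dim1 against Dim1-E85A within the UMI-linker libraries, which is the contrast in which the strains differ in the enzyme for these adenosines. Skipped reads were tested with edgeR's quasi-likelihood test, with the reads that reached each nucleotide as an offset and Benjamini-Hochberg adjustment over all covered nucleotides with enough skipped reads. All 13 members passed the minimum of 10 skipped reads and were tested among 46 nucleotides of 18S, from 1739 to 1788. Against both Dim1-E85A strains together, 6 of the 13 were higher with Dim1 at an adjusted p under 0.05, namely 1777 to 1782, and 5 were lower. Of all 46, 63% were called in either direction, 13% higher and 50% lower. At these 6, every Dim1 library also lay above every Dim1-E85A library, which was so at 13% of the 46. The 6 higher calls were all members, and 0 of the other 33 nucleotides were higher. Lower calls were more common by count outside the region (54.5% of the other 33) than within it (5 of 13). A loss of depth that is not regained is carried into every nucleotide 5′ of it, so these lower calls are not independent. Counting only loss made up again on the 5′ side, 33 nucleotides were tested and 18 called in either direction, 9 of them members.

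Sizes were similar at 5 of the 6 higher nucleotides. The fitted log2 fold was 3.45 at 1779 (SE 0.42, edgeR adjusted p = 3.58e-05), which is 10.9-fold, and 3.45 at 1778 with the same SE and adjusted p. At A1781 it was 3.54 (SE 0.35, edgeR adjusted p = 7.67e-06) and at A1782 3.57 (SE 0.34, edgeR adjusted p = 6.65e-06), so both target adenosines were skipped 11.7 to 11.9 times as often with Dim1. Nucleotide 1780 gave 3.09 (SE 0.27) and 1777 gave 2.74 (SE 0.21), the smallest of the 6. Immediately 5′ of it, 1776 differed by 0.16 (SE 0.18, edgeR adjusted p = 0.504) and was not called.

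The lower calls within the region concerned nucleotides that were rarely skipped in any library. At 1771 the share was 0.00116% with Dim1, 0.00671% in Pno1 and 0.00615% in Pno1-KKKF, a log2 fold of -2.46 (SE 0.31, edgeR adjusted p = 4.82e-05). At 1770 the log2 fold was -1.95 (SE 0.30). At 1773, 1774 and 1775 it lay between -0.94 and -0.60, and at 1772, which was not called, it was -0.40. Counting only loss of depth that was made up again on the 5′ side, the value at 1770 turned to 0.70 (edgeR adjusted p = 0.328). On that count 1771 had 0 skipped reads in Pno1, 0 to 19 in Pno1-KKKF and 3 to 6 with Dim1. No read was skipped at 1773 in any UMI-linker library. The shares at 1771 and 1773 were thus almost wholly depth not regained. The mean at 1772 was higher with Dim1, 0.00278% against 0 in Pno1 and 0.000572% in Pno1-KKKF. On that count 1772 was called higher, with a log2 fold of 5.83 (edgeR adjusted p = 0.0417). That fold rests on 0 skipped reads in Pno1 and 0 to 53 in Pno1-KKKF. The means at 1774 and 1775 stayed lower with Dim1.

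The same 6 nucleotides were higher against each Dim1-E85A strain alone. Against Pno1, 9 of the 13 members were called (58.7% of all 46), and the log2 folds of the 6 ran from 2.76 at 1777 to 3.58 at A1782. Against Pno1-KKKF, 11 were called (60.9% of all 46), with 2.72 at 1777 and 3.60 at A1781. These comparisons share the Dim1 libraries. For single nucleotides, an exact two-sided permutation test over the 8 libraries gave p = 0.0357 at 12 of the 13, the smallest p that its 28 arrangements allow. That p was also reached at 18 of the other 33, so at 65.2% of all 46. After adjustment over the nucleotides tested the smallest was 0.0548, so 0 passed 0.05, and with 2 against 3 libraries the smallest exact p is 0.1. With only 2 Dim1 libraries, the spread behind these edgeR values comes largely from the Dim1-E85A groups.

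**Figure D2:**
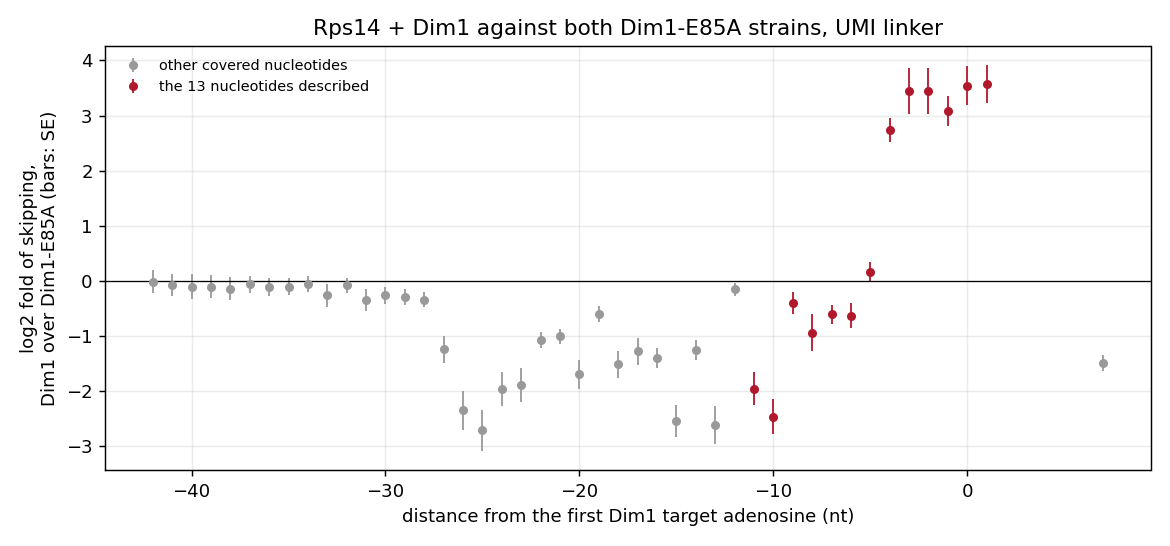
Fitted log2 fold of skipping (Rps14 + Dim1 over both Dim1-E85A strains, UMI linker, bars are standard errors) against the distance in nucleotides from the first target adenosine, for the tested nucleotides; nucleotide 1786, where both Dim1 libraries had 0 skipped reads, is left out because its fold has no measured lower side. The 6 nucleotides from 1777 to 1782 stand at 2.74 to 3.57, and no other nucleotide is called higher.

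Outside the region, the 3 highest skip shares of the UMI-linker libraries were at 1739, 1740 and 1741, the 5′ edge of the covered stretch. They averaged 0.428%, 0.159% and 0.129% over the 8 libraries, and the log2 folds for Dim1 were -0.02, -0.08 and -0.11, none of them called. In the Dim1 libraries no covered nucleotide outside the region therefore came near the shares at 1778 and 1779. The neighbours just outside also stayed low, with 0.0301% to 0.0378% at 1769.

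The share of each nucleotide was also set against the share at 1779 of the same library, which describes the form of the profile. It was close between strains at 1778, A1781 and A1782, and it differed in the 5′ part of the region. Relative to the share at 1779 of the same library, 1778 reached 98.1% ± 0.0913 with Dim1 (SD, n = 2). Pno1 reached 97.6% ± 0.295 there and Pno1-KKKF 97.5% ± 0.0829 (SD, n = 3 libraries for both). A1781 reached 16.1% ± 1.85, 15.1% ± 2.41 and 14.4% ± 0.602 in the same order, and A1782 reached 2.61% ± 0.204, 2.29% ± 0.424 and 2.40% ± 0.203. Nucleotide 1780 was at 15.4% ± 1.88 with Dim1, 20.8% ± 4.57 in Pno1 and 19.5% ± 1.91 in Pno1-KKKF. At 1777 the relative share was 2.90% ± 0.333 with Dim1, below the 5.12% ± 1.17 of Pno1 and the 4.85% ± 0.360 of Pno1-KKKF. From 1770 to 1776 the relative shares were lower with Dim1. They were 0.0107% with Dim1 at 1771, 0.794% in Pno1 and 0.629% in Pno1-KKKF, and 0.130%, 1.52% and 1.36% at 1776. The divisor, the share at 1779, was itself 10.9-fold higher with Dim1. A relative share is therefore lower by arithmetic wherever the undivided share rose by less, as at 1777. At 1776 the undivided share was 0.0142% with Dim1, 0.0121% in Pno1 and 0.0135% in Pno1-KKKF. These relative shares are described without a test, since neighbouring nucleotides are read by the same molecules. Depth alone does not show whether 1778 and 1779 were skipped together in one read. The sources used here do not say where the aligner places a gap within a run of equal bases, or how the deposited depth treats a gap, so a skip may be assigned to a neighbouring nucleotide.

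**Figure D3:**
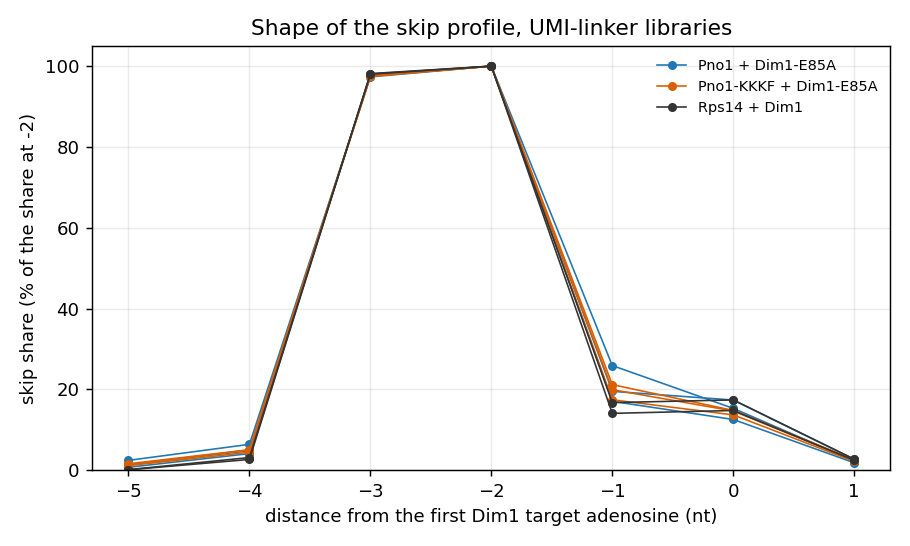
Skip share of each nucleotide as a percentage of the share at nucleotide 1779 in the same library (linear axis), against the distance in nucleotides from the first target adenosine, for the 8 UMI-linker libraries. The lines of all strains share a plateau at 1778 and 1779, with 1778 at 97.5% to 98.1% on average, and fall to 14.4% to 16.1% at the first adenosine.

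Summed over the 13 nucleotides, 100 reads of the Dim1 libraries lacked 25.6 ± 2.18 bases (SD, n = 2). The UMI-linker libraries of Pno1 lacked 2.45 ± 1.35 and those of Pno1-KKKF 2.45 ± 0.347 (SD, n = 3 libraries for both). Between 83.2% and 85% of this sum came from 1778 and 1779 with Dim1, 76.1% to 82.3% in Pno1 and 79.6% to 82.2% in Pno1-KKKF. Pno1 replicate 6 was highest of the Dim1-E85A libraries, with 3.94 missing bases per 100 reads, and Pno1 replicate 8 lowest, with 1.31.

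With the universal linker, Dim1-E85A libraries showed almost no skipping at these nucleotides. At 1779 between 0 and 29 reads were skipped per library, and at 1780 between 0 and 9. At A1782 the share was 0 in 10 of 10 libraries. There the depth was itself the highest found at or 3′ of the nucleotide. This 0 is therefore given by the measure and sets no upper limit on skipping. The UMI-linker libraries of the same strains averaged 0.0238% at A1782, and no fold between the linkers can be given there. At 30 °C the sum over the region was 0.0806 ± 0.00505 missing bases per 100 reads for Pno1 and 0.0839 ± 0.00352 for Pno1-KKKF (SD, 3 libraries per strain). The 25 °C sums were 0.0696 ± 0.00736 and 0.0785 ± 0.0159 (SD, 2 libraries per strain). In these libraries 1778 and 1779 held 0.128% to 2.87% of the sum. The most skipped member was 1772 instead, with 0.0250% to 0.0463%, and 1769, just outside the region, reached 0.332% to 0.520%. Covered nucleotides began at 1760 in these libraries and at 1739 in the UMI-linker libraries, so 1769 and 1772 lay nearer the 5′ edge here.

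The difference between linkers was tested at 25 °C with 4 universal-linker and 6 UMI-linker libraries of the Dim1-E85A strains. Of the 13 members, 12 were called by edgeR, 11 higher and 1 lower with the UMI linker. Among all 26 nucleotides tested 92.3% were called, 57.7% higher and 34.6% lower, so a call by itself says little here. A1781 was skipped more often with the UMI linker by 4.50 on the log2 scale (SE 0.45, edgeR adjusted p = 3.72e-06) and 1777 by 3.38 (SE 0.23, edgeR adjusted p = 1.54e-07). Fitted folds at 1778, 1779 and 1780 rest on few or no reads on the universal side and are not given. The fold at A1782 is not given either, because its 0 on that side comes from the measure. Nucleotide 1772 was the one lower with the UMI linker, by a log2 fold of -2.89 (SE 0.14), and 1770 was not called. The exact two-sided permutation test within strain gave p = 0.01 at 12 members, the smallest of its 100 arrangements, and 0.0108 after adjustment. Because the linker, the purification and the length of the covered stretch change together, their parts in this difference cannot be told apart. No Dim1 library was made with the universal linker, so the Dim1 difference was measured under 1 protocol only.

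The second comparison asked whether the Pno1-KKKF mutant changed skipping relative to Pno1, both with Dim1-E85A. It was made within each linker and temperature. At 30 °C with the universal linker, A1781 was the single nucleotide called, out of 10 members that passed the minimum of skipped reads and 23 nucleotides tested (4.35%). The share was 0.00586%, 0.00585% and 0.00585% in the 3 Pno1 libraries, from 153 to 167 skipped reads each. It was 0.0136%, 0.0152% and 0.0148% in the 3 Pno1-KKKF libraries, from 374 to 401 reads. The groups did not overlap, which was so with higher values in Pno1-KKKF at 13% of the 23, and the log2 fold was 1.31 (SE 0.07, edgeR adjusted p = 4.09e-05), which is 2.48-fold. The exact two-sided permutation test gave p = 0.1, the smallest it can give with 3 against 3 libraries.

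At 30 °C, 1778 and 1779 also had higher values in Pno1-KKKF, from few reads and without passing the test. At 1779, 7 to 8 reads were skipped in Pno1 and 14 to 29 in Pno1-KKKF, a log2 fold of 1.39 (SE 0.35, edgeR adjusted p = 0.089). At 1778, 14 reads were skipped in each Pno1 library and 19 to 34 in Pno1-KKKF, a log2 fold of 0.88 (SE 0.25, edgeR adjusted p = 0.0991). From 1774 to 1777 the values were slightly lower in Pno1-KKKF, with log2 folds between -0.31 and -0.26 and an edgeR adjusted p of 0.147 at each. The number of calls depended on single libraries. Without Pno1 replicate 1 it was 5 members of 7 nucleotides called among the 23, with 1774 to 1777 lower and A1781 higher. Without Pno1-KKKF replicate 2 it was 3, all members (1778, 1779 and A1781).

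At 25 °C with the universal linker the values at A1781 differed in the same direction, but 0 of the 10 members tested were called (0% of 23). Pno1 gave 0.00387% and 0.00523% (141 and 198 reads), and Pno1-KKKF 0.00867% and 0.00979% (254 and 428 reads), with no overlap, as at 13% of the 23 nucleotides in this direction. The log2 fold was 1.02 (SE 0.21), with an unadjusted edgeR p of 0.00903 and an adjusted p of 0.208. It was the 1 member with an unadjusted edgeR p under 0.05, of 2 nucleotides in all. DESeq2 called it (adjusted p = 0.00285), as did edgeR with TMM scaling (adjusted p = 0.0206), and limma did not (adjusted p = 0.242). With 2 against 2 libraries the smallest exact p is 0.333. Without Pno1 replicate 5, A1781 had an edgeR adjusted p of 0.072 and was not called. In that fit 2 of the 23 nucleotides were called, of which 1778 was the 1 member (log2 fold 2.45, edgeR adjusted p = 0.00308).

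In the UMI-linker libraries no difference between Pno1-KKKF and Pno1 was detected. None of the 13 members was called (0% of 46) by edgeR, DESeq2 or limma, and 0 had an unadjusted edgeR p under 0.05, against 1 of all 46. The log2 fold was 0.01 at 1779 (SE 0.46), 0.01 at 1778 (SE 0.46) and -0.11 at A1781 (SE 0.38, edgeR adjusted p = 0.934). The standard errors were large, as was the spread of the Pno1 libraries. In Pno1, A1781 ranged from 0.0774% to 0.279%, and in Pno1-KKKF from 0.134% to 0.162%. Without Pno1 replicate 6 the log2 fold at A1781 was 0.61 (edgeR adjusted p = 0.0736), and 1 nucleotide of the 46 was called, A1782 (log2 fold 0.77, edgeR adjusted p = 0.0181).

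Fitted over the 3 protocols together, with protocol as a term, 0 of 11 members tested were called (0% of 24). At A1781 the log2 fold was 0.69 (SE 0.27, edgeR adjusted p = 0.549), and 1 nucleotide in all had an unadjusted edgeR p under 0.05. Without Pno1 replicate 6 it was 0.99 (edgeR adjusted p = 2.9e-05), and 3 of the 24 nucleotides were called, all members (1778, 1779 and A1781). The 10 universal-linker libraries alone, a fit chosen after the values were seen, gave a log2 fold of 1.19 (SE 0.10, edgeR adjusted p = 1.89e-05) at A1781. That was the 1 nucleotide called of 22 tested (4.55%). The exact two-sided permutation test within temperature gave p = 0.0167 there, the smallest of 120 arrangements, and 0.183 after adjustment. Whether the strain difference itself differed between protocols was tested as an interaction in edgeR. At A1781 the edgeR adjusted p was 0.467 (unadjusted 0.0336), so no difference between protocols was shown.

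**Figure D4:**
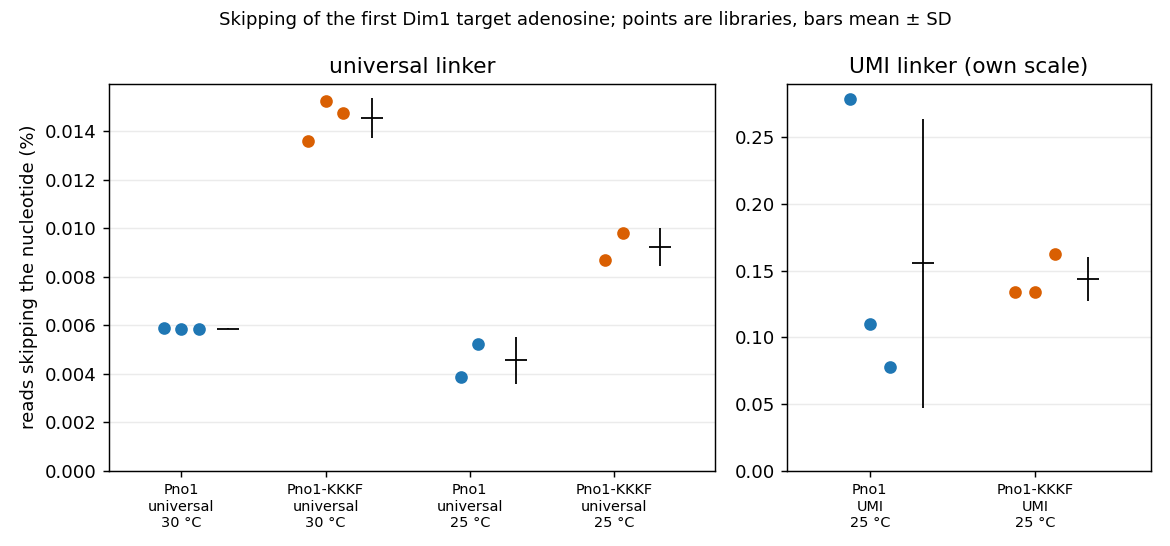
Skip share in percent of the first target adenosine in the 16 Dim1-E85A libraries, with 1 point per library and a black bar for mean ± SD, by strain, linker and temperature; the UMI-linker panel has its own linear axis. With the universal linker each Pno1-KKKF point (0.00867% to 0.0152%) lies above each Pno1 point (0.00387% to 0.00586%), and with the UMI linker the strains overlap.

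Growth temperature was compared within the universal-linker libraries of both Dim1-E85A strains, 4 grown at 25 °C and 6 at 30 °C. All 9 members that passed the minimum of skipped reads were called by edgeR, as were 90.9% of the 22 nucleotides tested, so a call does not set the members apart. At 25 °C, 6 members had lower shares, including A1781 with a log2 fold of -0.51 (SE 0.10, edgeR adjusted p = 0.00129) and 1777 with -0.91 (SE 0.12). Among all 22, 54.5% were lower and 36.4% higher. The other 3 members were higher, with 0.34 at 1770, 0.44 at 1772 and 1.41 at 1773. Whether the libraries of each temperature were also made at different times was not stated, so temperature and such a batch cannot be told apart.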

How the data were processed

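The deposited files hold, per the file headers, the read depth of every nucleotide of a 35S precursor of 6858 positions, as raw counts with no scaling by the authors. Bowtie2 2.2.9, cutadapt 3.5, Trim Galore 0.6.1, UMI-tools 1.1.2, bedtools 2.17.0 and SAMtools 1.1.0 are named, with no roles, in the submitters' processing notes. Settings, gap treatment and any duplicate removal were not given in the sources used here. Mature 18S begins at position 701 of the precursor, by the lengths in RefSeq's R64 table, so nucleotides are numbered in 18S.

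Skipped reads were the running maximum of depth from the 3′ side minus the depth. Covered nucleotides began where depth reached 50% of the maximum in every library of a fit, and those with at least 10 skipped reads in as many libraries as the smaller group were tested. Tests used edgeR 4.0.16 (quasi-likelihood, log running maximum as offset) in R 4.3.3, and exact permutations of log2 odds with 0.5 added. The SE of an edgeR log2 fold was derived from the test, as its absolute value divided by the square root of the F statistic. The Dim1 comparisons were fitted on the 8 UMI-linker libraries as 3 groups. DESeq2 1.42.0 (mean dispersion trend), limma 3.58.1, TMM scaling, other references for a skip, no minimum, a replicate block and leaving out each library were alternatives. The edgeR fit was tested on simulated data.

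All 13 members are described; those with a mean share of at least 1% in a group are given for every library, and outside nucleotides are limited to both neighbours and the 3 highest. The members and these lists were chosen with earlier results of these data known. No 2 libraries held identical values. The 4 libraries of 25S rRNA do not cover the region and were not used.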

Additional observations from a re-analysis of the deposited data

Results flagged for a closer look

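Among 26 groups of values tested for a library that stands apart, 3 had one. Chance gives about 1 in 20 among libraries made alike, but each group here held the 8 libraries of a strain, which span 3 protocols with different levels, so that rate does not apply. At A1781, Pno1 replicate 6 had a skip share of 0.279%, far above the other Pno1 libraries. At A1782, Pno1 replicate 6 stood apart likewise, with 0.0432%. At nucleotide 1770, Pno1-KKKF replicate 7 had 0.00948%. All 3 values come from UMI-linker libraries, and their cause was not tested.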

How the results depend on the processing

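The 6 nucleotides higher with Dim1 (1777 to 1782) were called against both Dim1-E85A strains in all 14 alternatives that gave them a value other than the neighbour reference, with log2 folds of 3.29 to 3.71 at 1779 and 3.38 to 3.91 at A1781. Taking the lower of the 2 neighbours as reference misses adjacent skips by construction. It also left fewer nucleotides to test, 16 in place of 46 for Dim1, 12 in place of 26 for the linker and 9 in place of 22 for temperature. With it the called members fell from 11 to 2 (Dim1 against both strains, 6 nucleotides called in all), from 9 to 2 (against Pno1, 5 in all), from 11 to 3 (against Pno1-KKKF, 8 in all), from 12 to 4 (linker, 11 in all) and from 9 to 2 (temperature, 5 in all). It raised the all-protocol count from 0 to 1, and it turned A1781 in the linker comparison to -10.78. The two-sided reference gave 7 called members in place of 11 against Pno1-KKKF (18 of 33 nucleotides in all), and it turned 1770 to 0.70 against both strains, 1.02 against Pno1 and 0.39 against Pno1-KKKF. It also turned 1772 to 5.83, 9.44 and 2.21 in the same order, from no or few skipped reads in the Dim1-E85A strains. Against both strains 1772 was then called higher. For Pno1-KKKF against Pno1 at 25 °C with the universal linker, DESeq2, TMM scaling and the replicate block each called 1 member in place of 0 (1, 1 and 2 of 23 nucleotides in all). The replicate block changed no other count of called members. The same-numbered libraries share only a number: their deviations correlated at over 0.1 in 3 of 8 pairs. For all protocols, the universal-linker libraries alone, an alternative added after the values were seen, called 1 in place of 0.

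Leaving out 1 library gave 8 to 11 called members in each of the 3 Dim1 comparisons (25 to 34 of 46 nucleotides in all), 12 to 12 for the linker (24 to 25 of 26) and 9 to 11 for temperature (19 to 21 of 23 or 24). For Pno1-KKKF against Pno1 it gave 1 to 5 at 30 °C (1 to 7 of 23), 0 to 1 at 25 °C with the universal linker (0 to 2 of 23), 0 to 1 with the UMI linker (0 to 1 of 46) and 0 to 3 over all protocols (0 to 3 of 24). Depth limits the universal-linker values at 1778 to 1780, where 0 to 34 reads were skipped, and the 0 at A1782 is given by the measure. The causes of these changes were not tested where none is named.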
